A study of Mus musculus with 14 samples.

Results

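The 10 genes described here encode secreted factors that tumors use to attract and expand myeloid cells: the chemokines Cxcl1, Cxcl2, Cxcl5, Ccl2, Ccl7 and Ccl20, the colony-stimulating factors Csf1, Csf2 and Csf3, and the cytokine Il6. They were chosen by name, with earlier results of these data known, out of 19938 genes. Those genes have a probe set that pairs with exactly 1 gene symbol, and each of the 10 had 1 such probe set. Expression was measured on Affymetrix Mouse Gene 1.0 ST arrays in 14 samples of cultured 4T1 cells, a line from a BALB/c mouse mammary tumor. All cells carried a lentiviral construct. The vector control samples (n = 3) carried a control vector with a non-coding insert and the CNOT7 over-expression samples (n = 3) carried human FLAG-tagged CNOT7, and both were selected with blasticidin. The sh74 samples (n = 2) and sh75 samples (n = 3) carried different short hairpin RNAs against Cnot7, the shScramble samples (n = 3) carried a scrambled hairpin, and these were selected with puromycin. The comparisons asked which transcripts follow the level of CNOT7, a deadenylase that shortens the poly(A) tails of mRNAs as part of the CCR4-NOT complex. The series calls the samples biological replicates but does not state whether each was its own culture, and the tests therefore cover the spread among the samples at hand, which may be technical.

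Cxcl1, Cxcl2 and Cxcl5 are ligands of CXCR2 and recruit neutrophils. Ccl2 and Ccl7 recruit monocytes through CCR2, and Ccl20 acts on CCR6. Csf1 (M-CSF), Csf2 (GM-CSF) and Csf3 (G-CSF) drive the growth and maturation of macrophages and granulocytes, and 4T1 tumors are known for the granulocyte expansion that they cause in their hosts. Transcription of many of these genes is induced by NF-kB after signals such as interleukin-1, and their mRNAs are typically short-lived.

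Promoter sequence from RefSeq (mouse build GRCm38.p6) was matched for 6 of the 10 genes, Cxcl1, Cxcl2, Ccl20, Csf1, Csf2 and Il6. Stretches of 120 bases that end at the base before the annotated start are shown for 5 of them because Cxcl1 and Ccl20 varied together and Csf2 had its highest values in the same samples as Ccl20, whereas Cxcl2 and Il6 stayed near the array's background. Capitals mark matches to the NF-kB consensus on either strand.
Cxcl1, chr5:90891125-90891244, plus strand: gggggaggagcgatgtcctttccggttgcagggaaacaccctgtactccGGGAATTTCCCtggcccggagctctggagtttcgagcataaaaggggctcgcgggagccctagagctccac
Cxcl2, chr5:90903779-90903898, plus strand: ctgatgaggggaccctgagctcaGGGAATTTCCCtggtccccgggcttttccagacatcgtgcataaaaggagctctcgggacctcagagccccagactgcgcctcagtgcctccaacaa
Ccl20, chr1:83116646-83116765, plus strand: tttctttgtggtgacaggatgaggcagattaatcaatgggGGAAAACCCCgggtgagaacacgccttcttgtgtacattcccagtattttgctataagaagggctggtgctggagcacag
Csf2, chr11:54249900-54250019, minus strand: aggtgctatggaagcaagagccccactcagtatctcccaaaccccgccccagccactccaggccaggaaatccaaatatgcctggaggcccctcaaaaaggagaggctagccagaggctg
Il6, chr5:30012994-30013113, plus strand: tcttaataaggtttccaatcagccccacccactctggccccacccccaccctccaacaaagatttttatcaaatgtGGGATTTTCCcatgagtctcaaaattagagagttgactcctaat

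The search itself covered 250 bases before each start, on both strands. The NF-kB motif was found for 5 of the 6 genes searched, and in 7.25% of 32851 RefSeq promoter windows of the same length. In Cxcl1 the match on the plus strand ran from position -71 to -62 relative to the start, and in Cxcl2 from -97 to -88, each with an overlapping match on the other strand. Il6 had its match from -44 to -35, Ccl20 from -80 to -71 on the minus strand, and Csf1, for which no stretch is shown, from -154 to -145 on the minus strand. Csf2 had no match in its window. The AP-1 motif TGANTCA was found for 1 of the 6 (Il6, from -249 to -243) against 6.75% of all windows, and the TATA box TATAAA for 0 of the 6 against 12.4%. A match describes letters in these windows and not a bound site. Only the exact letters TATAAA were counted, so near variants, such as the cataaa printed for Cxcl1 and Cxcl2, were not.

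The values are RMA log2 signals, on which a difference of 1 is a 2-fold change, and signals of different probe sets are not compared with each other. Array medians lay between 6.31 and 6.38. Olfactory receptor probe sets, which mammary cells should not express, served as background, and their 90th percentile, 4.89, was taken as the limit of dim signal. The epithelial keratins Krt8 and Krt18 were high in every sample (lowest values 11.13 and 11.73). Among markers of other cells, 5 of 7 fibroblast, 3 of 6 endothelial and 3 of 8 lymphoid genes had a mean above the limit. Of 15 myeloid cell markers with a probe set, 8 had a mean above the limit, and the mean over the list ran from 5.18 to 5.44 across all samples. On this list Ptprc, Itgam, Adgre1, Lyz2 and Ly6g were below the limit in every sample. Cd68 (6.77 to 9.01), Cd14 (6.72 to 8.87) and Csf1r (5.61 to 7.44) were above it in all 14. So were Mpo (5.18 to 5.41), S100a9 (5.26 to 5.61) and Tyrobp (5.21 to 5.65), which stayed closer to it. Elane, Fcer1g, Cd74 and S100a8 were above it in 13, 10, 4 and 3 samples. Cnot7 itself changed with sh75 by -2.29 on the log2 scale (SE 0.26, limma, adjusted p = 0.00911), differed by -1.31 with sh74 (SE 0.29, adjusted p = 0.279) and by 0.00 with over-expression (SE 0.26, adjusted p = 1), where the construct is human and need not be detected by mouse probes.

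Of the 10 genes, 8 had a mean above the limit of dim signal. Cxcl2 exceeded it in 1 of 14 samples (shScramble replicate 1, 4.98) and Il6 in 0. Among the 10, 7 genes, namely Cxcl1, Cxcl5, Ccl2, Ccl20, Csf1, Csf2 and Csf3, had a standard deviation over the samples at or above the 96.5th percentile of all 21789 probe sets tested. Cxcl5 was at the 99.8th percentile and Csf3 at the 99.3rd. Much of this variation lay between samples of the same group: the share of variance within groups was 68.1% for Cxcl5, 71.1% for Csf3, 77.4% for Csf1, 58.9% for Cxcl1 and 48.2% for Csf2, where the median over all probe sets was 68%.

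**Figure D1:**
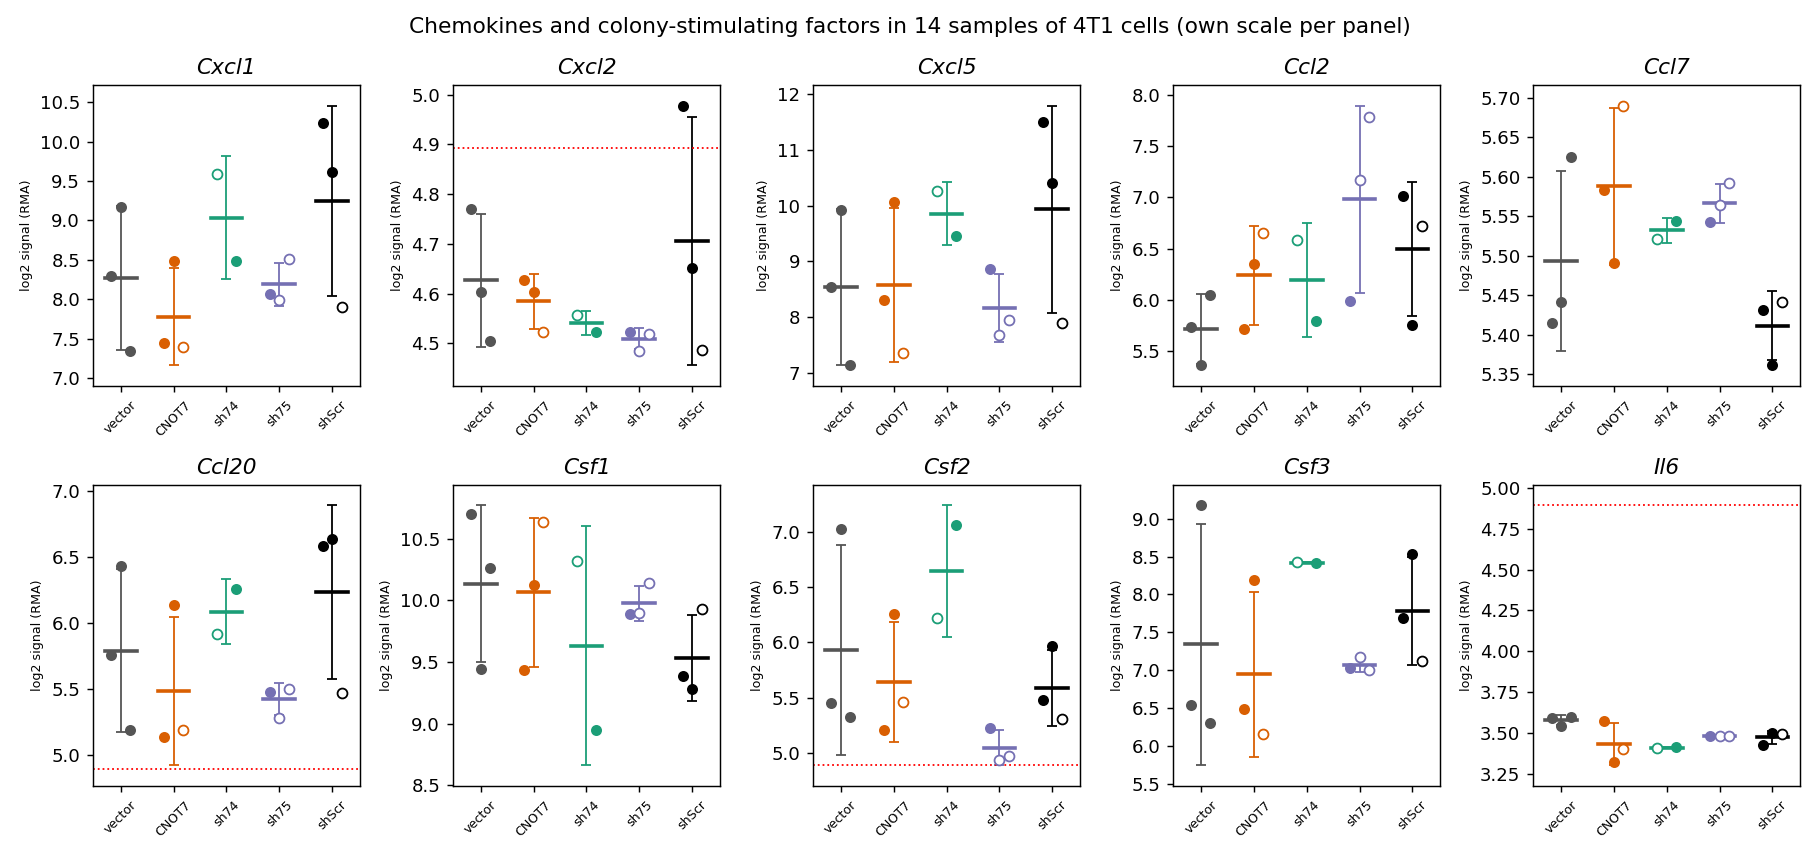
Log2 signal (RMA) of each of the 10 genes in the 14 samples, by group, with a separate scale for each gene; points are samples, thick bars are means, thin bars are SD, open points are the 5 samples with low Esrp1, and the red dotted line is the limit of dim signal (4.89) where it falls on the scale. Samples of a group spread widely for most genes, for example from 7.89 to 11.51 for Cxcl5 in shScramble cells, while Cxcl2 and Il6 stay near background.

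No member passed an adjusted p of 0.05 in any comparison of groups. This held for CNOT7 over-expression against vector control, where 0% of all probe sets passed in limma (562 at an unadjusted p under 0.05), for sh74 against shScramble (0.00918% of probe sets passed), for sh75 against shScramble (0.0918%), for both hairpins against shScramble (0.0184%) and for vector control against shScramble (0%, with 807 at an unadjusted p under 0.05). It also held for the F test over the 5 groups (0.0597%), in which Csf2 had the smallest p of the 10 (unadjusted p = 0.069, adjusted p = 0.581, limma). At an unadjusted p under 0.05, 1 of the 10 members was found with over-expression (Il6), with sh74 (Csf2), with sh75 and with both hairpins (Ccl7), and 0 between the controls. Of all probe sets, 2.58%, 7.33%, 8.26%, 7.30% and 3.70% had such a p in these comparisons, and 1 of 10 members is close to the shares for the hairpins. The 95% intervals were wide, and a change that misses the threshold is not shown to be absent.

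Among the CXCR2 ligands, Cxcl5 varied most and Cxcl2 least. Cxcl5 was 8.55, 9.93 and 7.14 in vector control, 8.31, 10.07 and 7.36 in CNOT7 over-expressing, 10.27 and 9.46 in sh74, 8.86, 7.69 and 7.96 in sh75, and 11.51, 10.42 and 7.89 in shScramble cells. The groups overlapped in each comparison with a control, and the whole range of 4.38 log2 units corresponds to a 20.8-fold difference. Relative to its control, Cxcl5 differed by 0.04 with over-expression (95% interval -2.10 to 2.18), by -0.08 with sh74 (-2.47 to 2.31) and by -1.77 with sh75 (-3.91 to 0.37; limma, unadjusted p = 0.0955, adjusted p = 0.68).

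Cxcl1 showed the same arrangement on a smaller scale. It was 8.30, 9.17 and 7.35 in vector control, 7.45, 8.49 and 7.40 in over-expressing, 9.59 and 8.48 in sh74, 8.07, 7.996 and 8.51 in sh75, and 10.23, 9.61 and 7.90 in shScramble cells. The third shScramble sample was lower than all 3 sh75 samples, and the first was the highest of all 14. The differences were -0.49 with over-expression (SE 0.61), -0.21 with sh74 (SE 0.68) and -1.06 with sh75 (SE 0.61, limma, adjusted p = 0.698). Cxcl2, which neighbours Cxcl1 on chromosome 5 and encodes a closely related chemokine, ranged only from 4.48 to 4.98, and its differences (-0.04, -0.17 and -0.20 in the same order) are differences near background.

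The 3 sh75 samples and 2 of the shScramble samples carry the same numbers in their titles, 4 and 5, the meaning of which is not stated. Within number 4, with 1 sample on each side, sh75 lay below shScramble by -1.56 for Cxcl5, -1.54 for Cxcl1, -1.16 for Ccl20 and -1.51 for Csf3. Within number 5, with 2 sh75 samples and 1 shScramble sample, the differences were -0.07 for Cxcl5, 0.35 for Cxcl1, -0.08 for Ccl20 and -0.03 for Csf3. The lower levels of these 4 genes with sh75 thus stood in 1 number and not in the other. For Csf2 the differences were -0.74 and -0.35, and for Cnot7 -2.81 and -1.91. In the fit with the title number as a replicate block, which could be made for this comparison only, the change was -0.83 for Cxcl5 (limma, adjusted p = 0.957), -0.53 for Cxcl1 and -0.61 for Ccl20.

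Among the monocyte and CCR6 chemokines, Ccl2 varied over 2.42 log2 units and Ccl7 over 0.33. Ccl2 was 5.73, 5.37 and 6.05 in vector control, 5.71, 6.35 and 6.66 in over-expressing, 6.59 and 5.80 in sh74, 5.99, 7.16 and 7.79 in sh75, and 7.01, 5.76 and 6.72 in shScramble cells. With over-expression no member stood clear of vector control, where 7.72% of all probe sets did. Every group overlapped its control for Ccl2, and the differences were 0.52 (SE 0.46), -0.30 (SE 0.51) and 0.49 (SE 0.46) for over-expression, sh74 and sh75. Ccl7, the gene next to Ccl2 on chromosome 11, was 5.43, 5.36 and 5.44 in shScramble, 5.52 and 5.54 in sh74 and 5.54, 5.56 and 5.59 in sh75 cells, so that no hairpin sample overlapped shScramble. The difference for both hairpins was 0.14 (SE 0.06, limma, unadjusted p = 0.0454, adjusted p = 0.677), a 1.1-fold change, and 3.93% of all probe sets likewise had no overlap in that comparison.

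Ccl20 was 5.76, 6.43 and 5.19 in vector control, 5.13, 6.13 and 5.18 in over-expressing, 5.91 and 6.26 in sh74, 5.48, 5.28 and 5.50 in sh75, and 6.59, 6.64 and 5.47 in shScramble cells. The third shScramble sample fell within the range of the sh75 samples and the other two lay above it. The change with sh75 was -0.81 (95% interval -1.65 to 0.02, limma, unadjusted p = 0.055, adjusted p = 0.618), against -0.15 with sh74 (SE 0.42) and -0.31 with over-expression (SE 0.38).

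The colony-stimulating factors differed in how they lay between the hairpins. Csf2 was 5.45, 7.03 and 5.32 in vector control, 5.21, 6.25 and 5.46 in over-expressing, 6.22 and 7.06 in sh74, 5.23, 4.94 and 4.97 in sh75, and 5.48, 5.97 and 5.31 in shScramble cells. Both sh74 samples were above and all 3 sh75 samples below every shScramble sample. Relative to shScramble, Csf2 differed by 1.05 with sh74 (SE 0.48, limma, unadjusted p = 0.0499, adjusted p = 0.681) and by -0.54 with sh75 (SE 0.43, adjusted p = 0.803), and the direct difference of sh74 over sh75 was 1.59 (SE 0.48, 95% interval 0.54 to 2.65, unadjusted p = 0.0067, adjusted p = 0.307). Of all probe sets, 22.0% had no overlap between sh74 and shScramble and 13.5% between sh75 and shScramble, and of the 10 genes 3 (Ccl7, Csf2 and Il6) and 2 (Ccl7 and Csf2). Cnot7 was lower in the sh75 than in the sh74 samples, so the hairpins differ in the depth of the knockdown. The sh74 and sh75 samples also share no title number, so hairpin, knockdown depth and title number cannot be told apart. Their parts in the difference were not tested.

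Csf3 was 6.54, 9.18 and 6.30 in vector control, 6.49, 8.19 and 6.16 in over-expressing, 8.42 and 8.41 in sh74, 7.03, 7.17 and 7.01 in sh75, and 7.69, 8.54 and 7.12 in shScramble cells. The sh74 samples lay above the sh75 samples, while each hairpin overlapped shScramble. The differences from shScramble were 0.64 with sh74 (SE 0.80) and -0.71 with sh75 (SE 0.72), and the difference between the hairpins was 1.35 (SE 0.80, limma, adjusted p = 0.685). With over-expression Csf3 differed by -0.40 (SE 0.72) and Csf2 by -0.29 (SE 0.43).

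Csf1, the macrophage factor, overlapped between all groups and their controls. It was 10.70, 9.45 and 10.26 in vector control, 9.43, 10.12 and 10.64 in over-expressing, 10.32 and 8.95 in sh74, 9.89, 9.90 and 10.14 in sh75, and 9.39, 9.28 and 9.93 in shScramble cells. The differences were -0.07 with over-expression (SE 0.41), 0.10 with sh74 (SE 0.46) and 0.44 with sh75 (SE 0.41). Il6 stayed between 3.32 and 3.60 in all samples. Its difference of -0.15 with over-expression (SE 0.06, limma, unadjusted p = 0.0373, adjusted p = 1) is a difference below the limit of dim signal.

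The change with over-expression was also tested against the mean change with the hairpins, and none of the 10 genes passed (limma, adjusted p = 1 for each). With over-expression 3 of the 10 genes lay higher and 7 lower, with a median difference of -0.11 (0.01 over all probe sets). With sh74 4 lay higher and 6 lower (median -0.07, 0.00 over all probe sets), and with sh75 4 lay higher and 6 lower (median -0.37, 0.00 over all probe sets). The sh74 and sh75 comparisons share the shScramble samples.

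**Figure D2:**
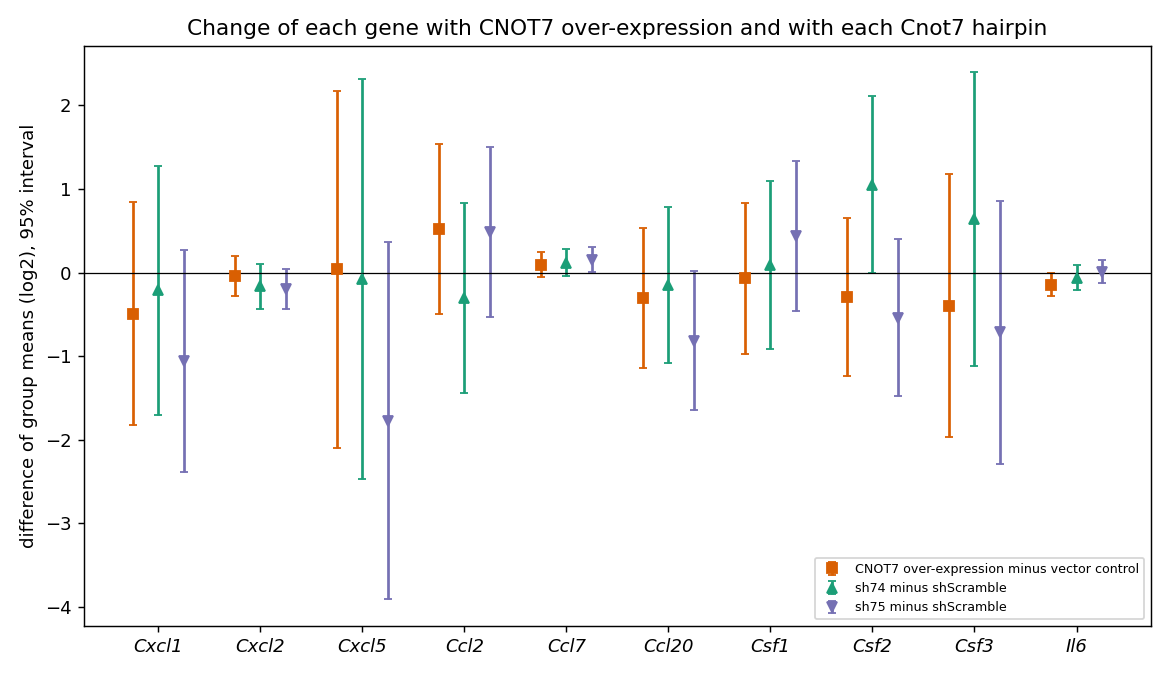
Difference of group means on the log2 scale for each gene, with 95% intervals from limma, for CNOT7 over-expression minus vector control (squares), sh74 minus shScramble (upward triangles) and sh75 minus shScramble (downward triangles). The sh75 value is the lowest of the 3 for Cxcl1, Cxcl2, Cxcl5, Ccl20, Csf2 and Csf3, and the intervals span 0 other than those of Il6 with over-expression, Csf2 with sh74 and Ccl7 with sh75.

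Across the 14 samples the genes fell into patterns that cut across the groups. Cxcl5, Ccl20, Csf2 and Csf3 each had their 6 highest values in the same 6 samples: vector control replicate 2, CNOT7 over-expression replicate 2, both sh74 samples and shScramble replicates 1 and 2. Cxcl1 shared 5 of these 6. None of the 3 sh75 samples was among them for Cxcl5, Ccl20, Csf2 or Csf3. How many of all probe sets have the same 6 samples highest was not counted. The pattern is therefore not shown to be particular to these genes. In Cxcl5 the lowest of the 6 was 9.46 and the next sample 8.86. In Csf3 these values were 7.69 and 7.18, in Ccl20 5.91 and 5.76, and in Csf2 5.48 and 5.46, a gap too small to separate samples.

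All 45 pairs of the 10 genes were tested by permutation, of which 28 involved no gene whose values fell into separate clusters. Of these, 9 passed an adjusted p of 0.05 over the 45 pairs by both Pearson's r and Spearman's rho, 6 with a positive and 3 with a negative sign. By Pearson's r, Cxcl1 and Cxcl5 were most alike (r = 0.91, rho = 0.895, n = 14, permutation p = 2e-05, adjusted p = 0.00075; r = 0.837 without the 2 samples farthest from the median). Cxcl5 and Ccl20 followed with r = 0.905 (rho = 0.868, permutation p = 5e-05, adjusted p = 0.00075; r = 0.863 without 2 samples), and Cxcl1 and Ccl20 with r = 0.877 and the highest rho of the 28 pairs (rho = 0.908, adjusted p = 0.00075; r = 0.798 without 2 samples). Ccl20 and Csf3 had r = 0.842 (rho = 0.833, permutation p = 0.00037, adjusted p = 0.00378; r = 0.905 without 2 samples). The other positive pairs were Cxcl1 with Csf3 (r = 0.744, rho = 0.785) and Cxcl5 with Csf3 (r = 0.771, rho = 0.771), with adjusted p-values of 0.0137 or less; without 2 samples r was 0.846 and 0.864.

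The 3 negative pairs all involved Ccl7, with Ccl20 (r = -0.75, permutation p = 0.00225, adjusted p = 0.0137), Cxcl1 (r = -0.678, adjusted p = 0.0329) and Cxcl5 (r = -0.669, adjusted p = 0.0368), although Ccl7 varied over only 0.33 log2 units. Without the 2 samples farthest from the median these were -0.64, -0.539 and -0.548, with adjusted p-values of 0.111, 0.161 and 0.161, so that none passed at n = 12. Csf2 fell into separate clusters, so no pooled coefficient is given for it. Without group differences, that is after subtraction of group means, r was 0.924 for Cxcl1 and Cxcl5, 0.891 for Cxcl5 and Ccl20 and 0.844 for Ccl20 and Csf3. In an exact test that permuted samples only within groups (2592 arrangements), 1 of the 28 pairs, Cxcl1 with Cxcl5, passed (adjusted p = 0.0434). Ccl20 with Csf2, outside the 28 because Csf2 was clustered, also passed this exact test (r = 0.815 after subtraction of group means, adjusted p = 0.0347).

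**Figure D3:**
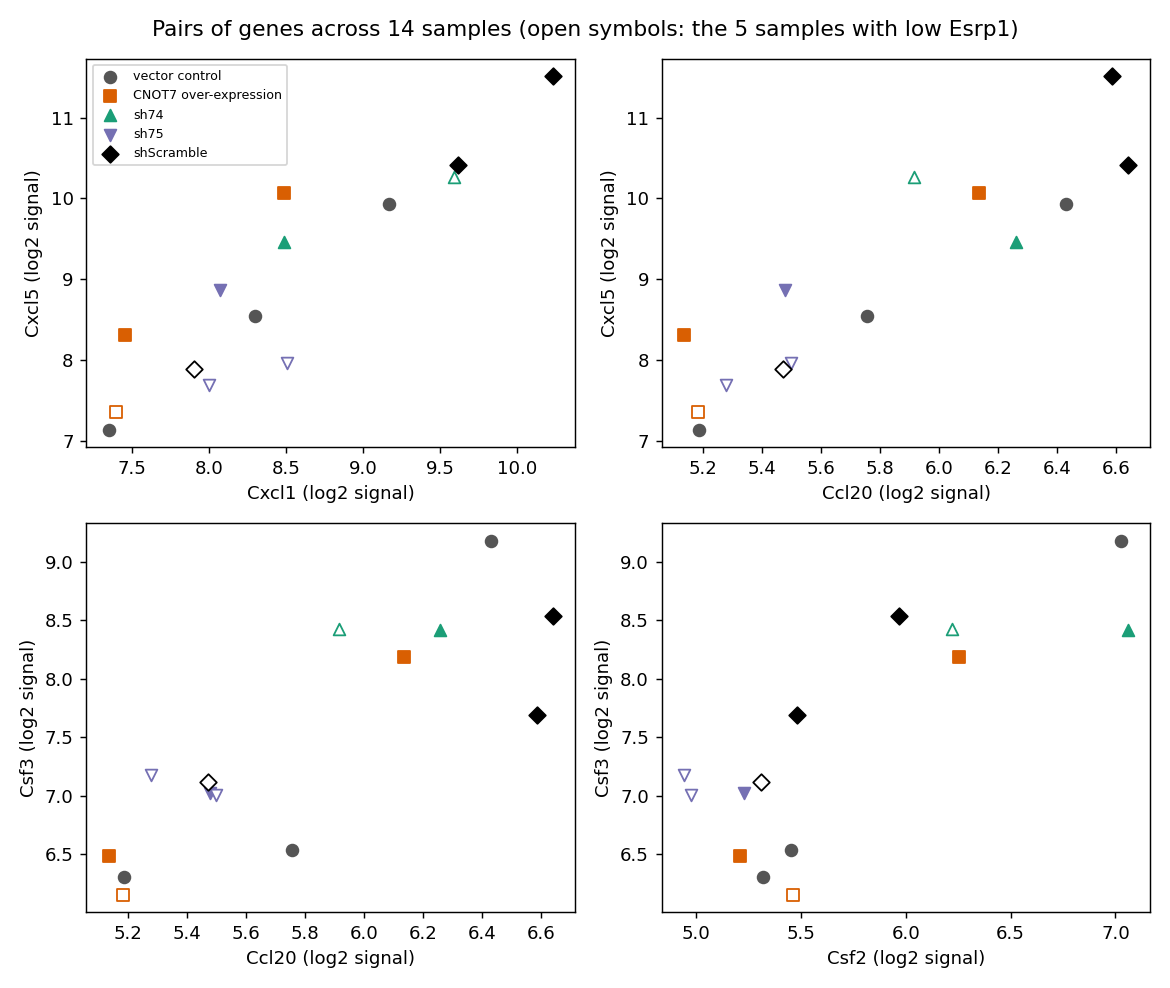
Log2 signals of 4 pairs of genes in the 14 samples; each symbol is a sample, shapes mark the groups, and open symbols mark the 5 samples with low Esrp1. In each panel the same 6 samples are the highest on the vertical axis, namely both sh74 samples, 2 shScramble samples and 1 sample each of vector control and over-expressing cells.

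The genes most like the 3 most variable members were sought among 10712 probe sets with a mean of at least 6, by Pearson's r over the 14 samples after subtraction of group means. For Cxcl5 these were Il1a (r = 0.926), which encodes interleukin-1 alpha, Cxcl1 (0.924) and Arhgef1 (0.913), an activator of RhoA. For Csf3 they were Zc3h12a (0.926), the endonuclease Regnase-1 that degrades cytokine mRNAs, Nfkbiz (0.925), an NF-kB cofactor induced by interleukin-1, and Znfx1 (0.923). For Cxcl1 they were Cxcl5 (0.924), Nppb (0.895) and the cytokine Lif (0.895). These are descriptions, the highest of many coefficients.

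Il1a, Nfkbiz and Zc3h12a each had their 6 highest values in the same 6 samples as Cxcl5. They were picked for likeness to Cxcl5 or Csf3 in these same samples, so the shared samples are no separate support. The other most similar genes, Arhgef1, Znfx1 and Nppb, were not examined in this way. Il1a was 9.97, 12.44 and 7.13 in vector control, 6.97, 12.19 and 7.53 in over-expressing, 11.27 and 11.76 in sh74, 6.52, 4.77 and 5.49 in sh75, and 12.22, 12.29 and 7.14 in shScramble cells. The Il1a values with sh75 were all below every shScramble sample, and the difference was -4.96 (SE 1.73, limma, unadjusted p = 0.0152, adjusted p = 0.467). Without subtraction of group means, r of Csf3 with Nfkbiz was 0.943. Ccl20 with Il1a, a pair outside the search and chosen after its values were seen, had r = 0.898 (0.983 within groups). For Ccl2 the coefficients were -0.459 with Il1a and -0.339 with Nfkbiz, and for Csf1 they were -0.365 and -0.573.

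**Figure D4:**
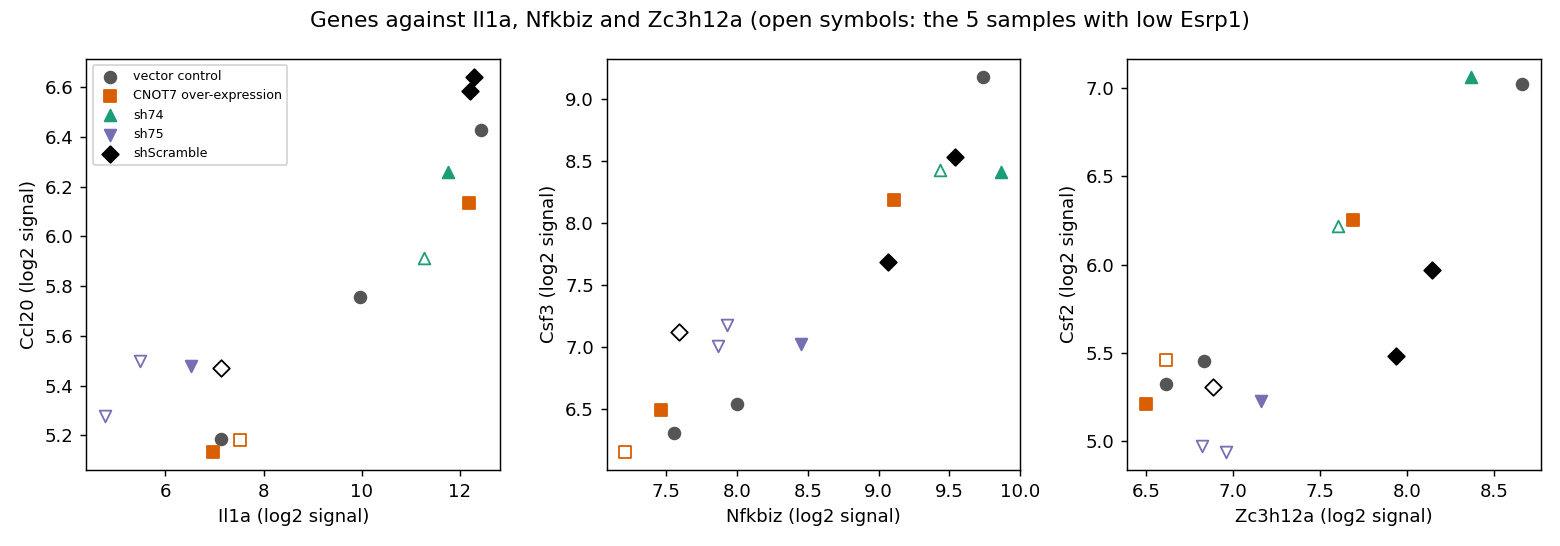
Log2 signal of Ccl20 against Il1a, of Csf3 against Nfkbiz and of Csf2 against Zc3h12a in the 14 samples, with shapes for groups and open symbols for the 5 samples with low Esrp1. The 6 samples with Il1a from 11.27 upward are the 6 highest on the vertical axis of every panel, and none of them is an sh75 sample. Il1a, Nfkbiz and Zc3h12a were picked for likeness to Cxcl5 or Csf3 in these same samples.

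The epithelial-mesenchymal state was read from Esrp1, an epithelial splicing regulator, and Vim, the mesenchymal intermediate filament. Esrp1 fell into separate clusters, at most 6.50 in 5 samples and at least 9.73 in the other 9. The 5 low samples were shScramble replicate 3, over-expression replicate 3, sh74 replicate 1 and sh75 replicates 2 and 3. By title number, 4 of the 5 samples numbered 5 were low in Esrp1, and 1 of the other 9. The low state thus lay mostly in samples of that number, whose part in the results that follow was not tested. Since Esrp1 was clustered, its relation to the members is given without a p.

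Ccl2 and Csf1 lay higher where Esrp1 was low. Ccl2 ranged from 6.59 to 7.79 with a median of 6.72 in the 5 samples with low Esrp1, and from 5.37 to 7.01 with a median of 5.80 in the other 9, of which only shScramble replicate 1 entered the range of the low samples. Csf1 ranged from 9.90 to 10.64 (median 10.14) in the 5 and from 8.95 to 10.70 (median 9.45) in the 9. Within groups, the slope on Esrp1 was -0.16 log2 units of Ccl2 per log2 unit of Esrp1 (SE 0.05) and -0.15 for Csf1 (SE 0.04). Cd68, a marker on the myeloid list, had a slope of -0.20 on Esrp1 (SE 0.06) and 0.40 on Vim (SE 0.16, limma, unadjusted p = 0.0301, adjusted p = 0.258). Csf1r, also on that list, had the opposite signs, with 0.24 on Esrp1 (SE 0.05) and -0.51 on Vim (SE 0.14). Of the 15 markers on the list, 6 had a positive and 9 a negative slope on Esrp1 (median -0.00419). On Vim 11 were positive and 4 negative (median 0.0143). The part of Cd68 in these results was not tested.

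Cxcl5 and Ccl20 had lower medians where Esrp1 was low, with much overlap. Cxcl5 had a median of 7.89 in the 5 samples with low Esrp1 (7.36 to 10.27) and 9.46 in the other 9 (7.14 to 11.51), with a within-group slope of 0.29 (SE 0.13). Ccl20 had medians of 5.47 and 6.13, with a slope of 0.10 (SE 0.05). Cxcl1 had medians of 7.996 and 8.49, with a slope of 0.09 (SE 0.09) that ran from -0.0352 to 0.17 when each sample was left out. The sh74 sample with low Esrp1 was among the 6 highest for Cxcl5, Ccl20 and Csf3, and over-expression replicate 1, with the highest Esrp1 of all samples (11.01), had 8.31 for Cxcl5 and 5.13 for Ccl20, the lowest Ccl20 of the 14. Among the 9 samples with higher Esrp1, no member was correlated with it past an adjusted p of 0.05 over 20 relations; the strongest was Csf1 (r = -0.704, rho = -0.517, n = 9, exact permutation p = 0.0351, adjusted p = 0.234; r = -0.651 without the 2 samples farthest from the median).

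Vim was spread without a wide gap from 10.08 to 13.06, so slopes on it were tested. Of all probe sets, 0.207% had a slope past an adjusted p of 0.05 within groups, and none of the 10 members did. At an unadjusted p under 0.05 (limma) there were 3306 of 21788 probe sets, and of the 10 members only Ccl2 and Csf1. Such a p is thus common in these data and does not set these members apart. The slope of Ccl2 was 0.39 log2 units per log2 unit of Vim (SE 0.12, limma, unadjusted p = 0.00928, adjusted p = 0.162) and that of Csf1 was 0.33 (SE 0.11, unadjusted p = 0.0149, adjusted p = 0.191). Over the 14 samples, r with Vim was 0.583 for Ccl2 (rho = 0.662, permutation p = 0.0275, adjusted p = 0.234; 0.532 without the 2 samples farthest from the median of Vim) and 0.691 for Csf1 (rho = 0.631, permutation p = 0.00643, adjusted p = 0.129; 0.422 without them). Cxcl2, near background, and Csf2 fell into clusters and get no pooled r; by rank, Cxcl2 had rho = -0.622 with Vim (permutation p = 0.0197, adjusted p = 0.131). The remaining 6 members had r between -0.464 (Ccl20) and 0.398 (Ccl7) and rho between -0.385 and 0.371, with adjusted p-values of 0.473 or more.

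**Figure D5:**
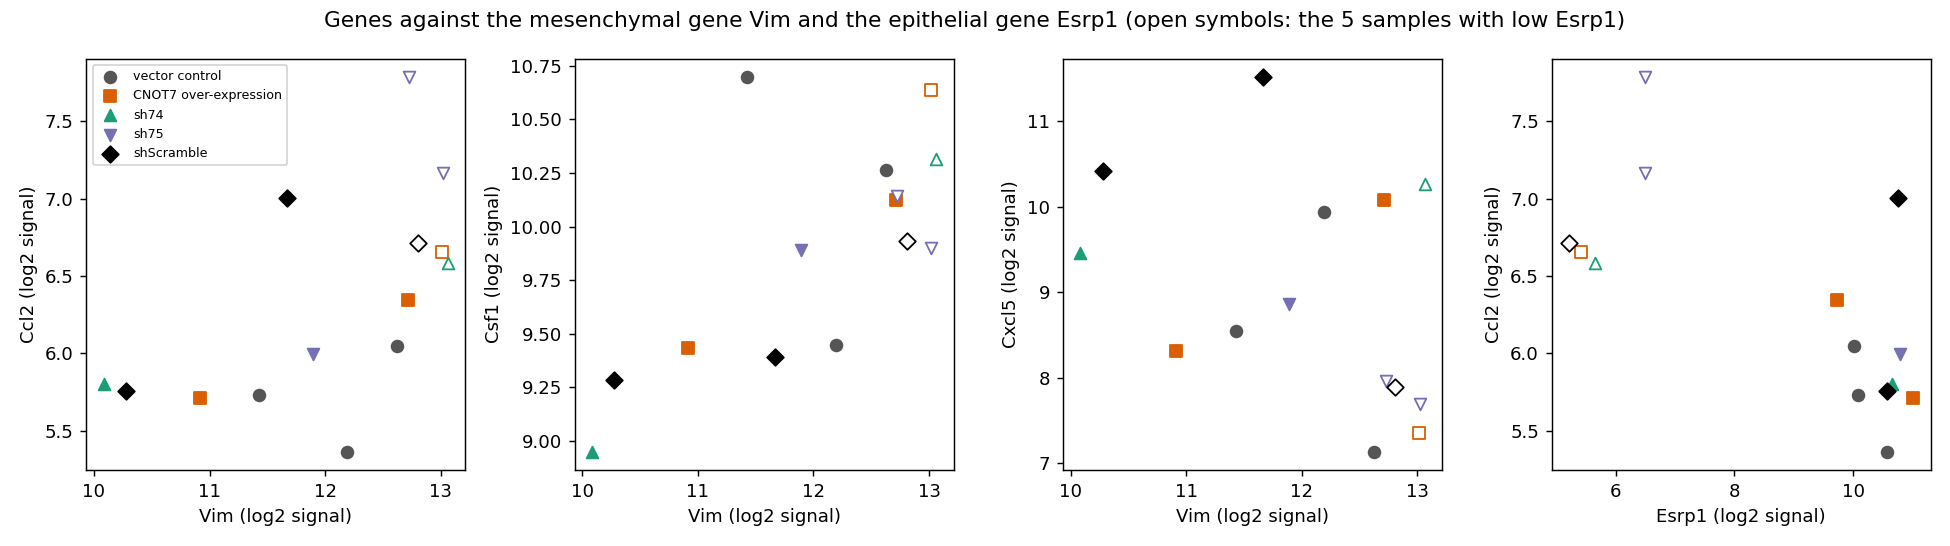
Log2 signal of Ccl2, Csf1 and Cxcl5 against Vim, and of Ccl2 against Esrp1, in the 14 samples; shapes mark groups and open symbols the 5 samples with low Esrp1. Ccl2 and Csf1 are higher at high Vim, Cxcl5 shows no such order, and in the last panel 1 sample with high Esrp1 (7.01) lies among the low-Esrp1 samples in Ccl2.

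Other genes of the same system were counted by list, and in none of the following lists did a gene pass an adjusted p of 0.05 in a group comparison (limma). Of 14 receptors of the members, 7 had a mean above the limit of dim signal. These 7 were Cxcr1, Ackr2, Csf1r, Csf2ra, Csf2rb, Il6ra and Il6st, each above it in every sample. Cxcr1 (5.17 to 5.40) and Csf2rb (4.94 to 5.38) stayed close to the limit. Cxcr2, Ccr2 and Ccr6, receptors of neutrophil, monocyte and Ccl20 signals, were below it in every sample, as were Ccr1, Ccr3 and Ackr1. The shared signaling chain Il6st was between 9.25 and 10.82, and Il6ra, the receptor of Il6, was between 7.85 and 9.96 and differed by 1.1 with sh75 (SE 0.30, unadjusted p = 0.00385, adjusted p = 0.354). Csf1r, the receptor of Csf1 and also on the myeloid list, was between 5.61 and 7.44, with a slope of -0.51 on Vim (SE 0.14, limma, adjusted p = 0.125), opposite in sign to that of its ligand. In these bulk samples fewer cells of a type and less RNA per cell cannot be told apart.

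Of 14 other CXC, CX3C and C chemokines, 10 were above the limit of dim signal, and Cxcl16, a transmembrane chemokine, differed by -0.64 with sh75 (unadjusted p = 0.0372, adjusted p = 0.582). Of 14 other CC chemokines, 8 were above it, and Ccl5 differed by -1.49 with sh75 (unadjusted p = 0.0383, adjusted p = 0.583). Among 18 measured myeloid and IL-6 family cytokines, the smallest p with sh75 was that of Il1a. Of 21 measured NF-kB subunits, inhibitors and inducers, all above the limit, 3 had an unadjusted p under 0.05 with sh75 and 4 with sh74, where 8.26% and 7.33% of all probe sets did. Nfkb2, the p100 subunit gene, differed by -0.49 with sh75 (adjusted p = 0.466) and Nfkbib, an inhibitor, by -0.50 with sh74 (adjusted p = 0.445). Of 12 proteins that bind cytokine mRNAs and control their decay, all above the limit, Zfp36l2 had the smallest p in both hairpin comparisons, with differences of 0.56 for sh74 (adjusted p = 0.459) and 0.33 for sh75 (adjusted p = 0.583).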

How the data were processed

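RNA was extracted with Trizol. Per the labels, RMA (oligo package) was applied by the authors, with background correction, quantile normalization and probe summarization, and the deposited values are log2 signals. Versions and the build behind the array annotation are not given in the sources used here. The log2 values were used as deposited. Of 35556 probe sets, 21789 paired with 1 gene symbol and were tested, 1621 paired with several and 12146 with none. Groups came from the treatment labels; the design text speaks of 3 replicates per hairpin, and 2 sh74 samples are used here. The members, gene lists and tests were chosen with earlier results of these data known.

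Group differences were contrasts in a linear model of all 14 samples (lmFit and eBayes of limma 3.58.1 under R 4.3.3, with 9 residual degrees of freedom), two-sided, adjusted by Benjamini-Hochberg over all probe sets, with 0.05 as threshold. Slopes added Esrp1 or Vim to the groups. A gene was taken as clustered where a gap between neighbouring sorted values exceeded 33.3% of its range. Correlations used 100000 permutations (scipy 1.17.1), or exact enumeration. All 10 members were named, and 3 most similar genes for each of the 3 most variable members. From each list up to 4 genes were named by smallest p or highest level. The receptors placed against the limit of dim signal and the cell markers were named outside this rule. The methods were tested on simulated data. Alternatives were other normalizations, filters, variance models and covariates, the methods' t-test, and leaving out each sample. The number of arrays limits the precision.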

Additional observations from a re-analysis of the deposited data

Results flagged for a closer look

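For 3 of the genes, all samples of sh74 lay on one side of the shScramble mean and all samples of sh75 on the other. The share of all probe sets that do the same was not counted, so these genes are not shown to stand out. The difference of sh74 minus sh75 was 1.59 on the log2 scale for Csf2 (SE 0.48, limma, unadjusted p = 0.0067, adjusted p = 0.307), with both sh74 samples above and all 3 sh75 samples below every shScramble sample. It was 1.35 for Csf3 (SE 0.80, adjusted p = 0.685), and -0.0729 for Il6 (SE 0.07, adjusted p = 0.847), whose values are below the limit of dim signal. None of these differences passed the threshold. The sh74 and sh75 samples share no title number, so hairpin and title number cannot be told apart in these differences. Groups of 2 or 3 samples are too small for a check of single outlying samples.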

How the results depend on the processing

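None of the 10 members passed an adjusted p of 0.05 in any group comparison or slope on Vim under any of the 19 to 25 alternatives run for each; the smallest adjusted p was 0.307 for a group difference and 0.0575 for a slope on Vim (Csf1, without vector control replicate 1). Of 724 recomputed group differences, 23 changed sign, all of uncalled values. Leaving out each sample in turn moved the differences with over-expression from -0.103 to 0.0300 for Cxcl2, from -0.41 to 0.25 for Csf1, from -0.63 to 0.0134 for Ccl20, from -0.60 to 0.25 for Csf2, from -1.02 to 0.52 for Csf3 and from -0.71 to 0.74 for Cxcl5. It moved those with sh74 from -0.53 to 0.0584 for Ccl20, from -0.59 to 0.78 for Csf1, from -0.89 to 0.34 for Cxcl1, from -1.10 to 0.71 for Cxcl5 and from -0.69 to 0.0903 for Ccl2, and that of Il6 with sh75 from -0.0125 to 0.0236. The slope on Vim ran from -0.27 to 0.23 for Cxcl1, from -0.20 to 0.0552 for Csf3 and from -0.59 to 0.0799 for Cxcl5, and the slope on Esrp1 from -0.0352 to 0.17 for Cxcl1 and from -0.00574 to 0.00684 for Il6. With Esrp1 as a covariate the sh74 difference was 0.12 for Cxcl5 and -0.0107 for Csf1, and with arrays centred on their median the sh75 difference of Il6 was -0.0186. Without the 2 samples farthest from the median of Vim, r with Vim was 0.171 for Csf3 in place of -0.251. For Csf2, whose clustered values get no pooled r above, it was 0.087 in place of -0.344, given only for this change of sign. With group means subtracted, 1 of the 28 pairs passed in place of 9; this test has 2592 arrangements. The cause of these changes was not tested.

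Over all probe sets, calls across the alternatives ranged from 0 to 122 for sh74 against shScramble (2 as reported, 122 without sh74 replicate 2), from 0 to 36 for sh75 (20 as reported, 36 without sh74 replicate 1 or 2, and 6 without sh75 replicate 1 or shScramble replicate 2), from 0 to 89 for both hairpins (4 as reported, 89 without sh74 replicate 2) and from 0 to 1 for over-expression (0 as reported). Without either sh74 sample that group is 1 array, which is assumed to vary like the other groups, so the 122 and 89 calls have no replicate check of their own. No paired analysis was possible for the comparisons that involve vector control or sh74 because these share no title number with the other groups; for sh75 against shScramble the fit with the title number as a replicate block called 0 members and 0 of all probe sets, and the change of Cxcl5 was -0.83 in place of -1.77.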
